A study of Mus musculus with 6 samples.

Results

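The 10 genes described here, Csrp3, Ankrd1, Ankrd2, Xirp1, Xirp2, Nes, Actc1, Myl4, Tnnt2 and Tnfrsf12a, are transcripts that striated muscle makes when it is stretched, injured or immature. They were chosen by name, with earlier results of these data known, so the shares of all genes set beside them are a description. All 10 had a row among the 16289 genes of the deposited count table and passed the filter on low counts, which kept 16259 genes. RNA-seq read counts had been measured in 6 libraries of whole tibialis anterior, a shin muscle, from wildtype male C57BL/6J mice 12 weeks old, taken 14 days after a glycerol injection into the muscle. In 3 mice the glycerol injury was combined with the pineal hormone melatonin (glycerol+melatonin), and in 3 with a control treatment (glycerol). All 6 muscles had thus been injured, and uninjured muscle was not analysed here. The sources used here give neither the dose, route or timing of melatonin nor what the control treatment was. The muscle is called tibialis anterior here after the tissue label, although the protocol for RNA extraction speaks of longissimus dorsi, which lies in the back. The single comparison asks which of these transcripts differed in injured muscle when melatonin was given.

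Glycerol kills muscle fibres, which are then rebuilt from satellite cells, the stem cells of muscle. New fibres pass through a stage in which they make sarcomere proteins of the fetal and heart type before the adult forms replace them. Stretch and injury also call up proteins of the Z-disc and of the spring region of titin, which link the contractile filaments to signalling, and proteins that patch damaged fibres. Many of these genes are known targets of the transcription factors SRF, MEF2 and TEAD. In whole muscle, fewer cells of a type and less RNA per cell cannot be told apart.

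Libraries held 39310361 to 48879045 counts, and the lowest count of any of the 10 genes in a library was 669. Levels are given in CPM, counts per 1000000 scaled by TMM factors. Skeletal alpha-actin (Acta1), the main actin of adult muscle fibres, was at 24029.9 to 37499.9 CPM in glycerol+melatonin and 35251.1 to 41229.4 CPM in glycerol. As several of the 10 genes are also heart genes, markers of heart muscle were checked. Of 11 such markers 4 were tested, and these summed to 3.7 to 7.94 CPM in glycerol+melatonin and 5.32 to 5.95 CPM in glycerol.

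With melatonin, 8 of the 10 genes lay above glycerol and 2 below it, but none passed edgeR's quasi-likelihood test at a Benjamini-Hochberg adjusted p under 0.05. That threshold was passed by 12 genes, or 0.0738% of those tested (0.0185% higher and 0.0554% lower). Of all genes tested, 51.7% lay above 0. The largest differences were those of the muscle LIM protein gene Csrp3, 3.36-fold higher, the TWEAK receptor gene Tnfrsf12a, 2.87-fold higher, and the Xin gene Xirp1, 1.74-fold higher. The 2 genes on the other side were Xirp2 and cardiac alpha-actin, Actc1, at 1.43-fold and 1.4-fold lower. At an unadjusted p under 0.05 there were 5 higher and 1 lower among the 10, against 10.1% and 9.39% of all genes tested. The groups did not overlap for 4 genes on the higher side and 2 on the lower side, against 13.6% and 12.5% of all genes. The median log2 fold change of the 10 was 0.42, beside 0.02 for all genes tested. DESeq2 called 3 of the 10, Tnfrsf12a, Csrp3 and Xirp1, all higher, where it called 5.01% of genes in all and 2.21% as higher. By limma-voom 0 of the 10 were called and 6 had an unadjusted p under 0.05, against 12 and 3248 of the 16259 genes tested.

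**Figure D1:**
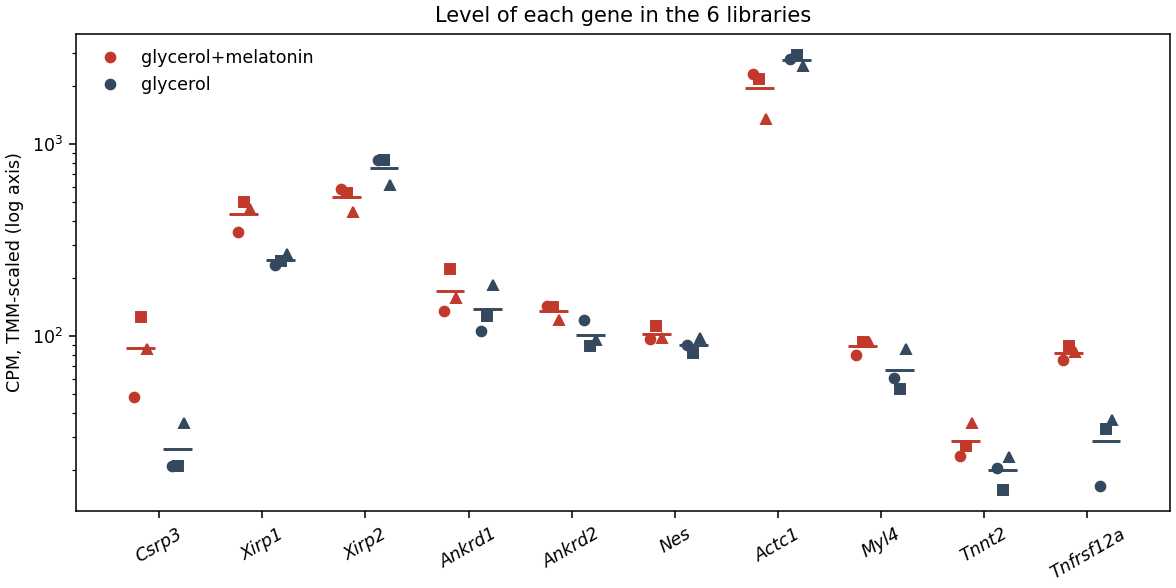
Level of each of the 10 genes in CPM on a log axis, with circles, squares and triangles for replicates 1, 2 and 3 of a group and a bar at the group mean. Csrp3 and Tnfrsf12a sat at 48.3 to 126.0 and 75.4 to 88.5 CPM in glycerol+melatonin, above all glycerol libraries, while Xirp2 and Actc1 sat below theirs.

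Promoters are shown for the 4 genes at the ends of the range of fold changes, Csrp3, Tnfrsf12a, Xirp2 and Actc1, and for Ankrd1, known as a TEAD target. The sequences, from RefSeq on GRCm38.p6, run from 250 bases before to 50 after a gene's start in RefSeq and matched 9 of the 10 genes. Capitals mark matches on either strand to the TEAD motif M-CAT (CATTCC), to the CArG box of SRF and to the MEF2 motif. The windows are chr7:48848002-48848301 for Csrp3, chr17:23677400-23677699 for Tnfrsf12a, chr2:67445752-67446051 for Xirp2, chr2:114052826-114053125 for Actc1 and chr19:36119795-36120094 for Ankrd1. Xirp2 is on the plus strand and the others are on the minus strand, and each is written 5′ to 3′ along its gene. The Actc1 and Ankrd1 windows lie wholly inside the GENCODE spans of these genes, which reach 114053548 and 36120099. Distances are counted from the RefSeq start, which for these genes is not the outermost start in GENCODE.
Csrp3: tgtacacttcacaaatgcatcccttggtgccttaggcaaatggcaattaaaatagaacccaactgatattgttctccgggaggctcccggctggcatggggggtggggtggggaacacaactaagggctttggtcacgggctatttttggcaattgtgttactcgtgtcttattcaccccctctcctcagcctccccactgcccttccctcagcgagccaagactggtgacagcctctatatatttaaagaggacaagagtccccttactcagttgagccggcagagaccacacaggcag
Tnfrsf12a: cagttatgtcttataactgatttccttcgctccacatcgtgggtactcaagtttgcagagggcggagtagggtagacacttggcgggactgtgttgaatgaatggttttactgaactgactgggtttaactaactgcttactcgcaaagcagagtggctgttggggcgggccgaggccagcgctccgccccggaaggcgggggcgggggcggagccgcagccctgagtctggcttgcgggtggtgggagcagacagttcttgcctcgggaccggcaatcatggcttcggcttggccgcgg
Xirp2: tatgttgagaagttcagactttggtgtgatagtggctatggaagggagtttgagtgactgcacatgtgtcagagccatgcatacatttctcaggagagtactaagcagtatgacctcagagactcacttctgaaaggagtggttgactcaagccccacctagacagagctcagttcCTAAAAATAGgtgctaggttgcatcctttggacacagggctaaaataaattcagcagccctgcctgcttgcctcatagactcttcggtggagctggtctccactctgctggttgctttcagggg
Actc1: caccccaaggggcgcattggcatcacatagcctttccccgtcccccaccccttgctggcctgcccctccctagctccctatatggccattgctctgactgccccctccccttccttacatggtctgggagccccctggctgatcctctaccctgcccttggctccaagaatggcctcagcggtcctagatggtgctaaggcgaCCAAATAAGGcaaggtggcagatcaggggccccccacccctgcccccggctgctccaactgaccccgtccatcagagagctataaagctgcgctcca
Ankrd1: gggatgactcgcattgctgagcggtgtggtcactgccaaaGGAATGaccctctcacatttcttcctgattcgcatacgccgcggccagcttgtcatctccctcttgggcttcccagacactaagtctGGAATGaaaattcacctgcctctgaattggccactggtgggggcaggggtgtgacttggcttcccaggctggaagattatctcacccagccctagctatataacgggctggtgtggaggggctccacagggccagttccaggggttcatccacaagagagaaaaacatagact
Ankrd1 held 2 M-CAT matches, 210 and 123 bases before the start, Tnnt2 held 1, and the other 7 windows had none, beside 14.7% of 32851 windows of this length. Actc1 held the single CArG match, 47 bases before its RefSeq start (1.63% of windows), and Xirp2 the single MEF2 match, 74 bases before its own (3.19%). The marked matches do not overlap each other or an E-box. Csrp3 and Tnfrsf12a, with the largest differences, held none of the 3 motifs in this window. E-boxes (CANNTG), the motif of MyoD and myogenin, were in 7 of the 9 windows, with 5 each in Csrp3 and Tnnt2 and an overlapping pair in Xirp2, beside 72.3% of all windows. A match is a run of letters and not a measured site.

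Csrp3 (ENSMUSG00000030470, chromosome 7, 48830398 to 48848033, GRCm38) encodes the muscle LIM protein, a Z-disc protein that stretch and denervation are known to induce. It was at 48.3, 126.0 and 85.4 CPM in glycerol+melatonin and at 21.1, 21.1 and 35.2 CPM in glycerol. Every melatonin library was above every glycerol library, with melatonin replicate 2 the highest and melatonin replicate 1 closest to the glycerol mice. The means were 86.6 ± 38.9 CPM in glycerol+melatonin and 25.8 ± 8.11 CPM in glycerol (SD, n = 3 each), which gave 1.75 ± 0.35 on the log2 scale (SE, edgeR adjusted p = 0.122). Among all genes tested, 49 had a higher log2 fold change. Leaving out 1 library at a time gave 1.37 to 2.04, the lowest without melatonin replicate 2. The related LIM protein genes Csrp1 and Csrp2, made in many cell types, were at -0.12 ± 0.21 and 0.63 ± 0.26 (edgeR adjusted p = 0.794 and 0.237).

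The muscle ankyrin repeat proteins bind the spring region of titin and also enter the nucleus. Ankrd1 (ENSMUSG00000024803, chromosome 19, 36111961 to 36120099), which stretch and injury induce, was at 135.0, 224.0 and 157.8 CPM in glycerol+melatonin and 106.5, 126.7 and 183.8 CPM in glycerol. The groups overlapped, as glycerol replicate 3 lay above 2 of the melatonin mice. Its log2 fold change of 0.31 ± 0.26 (edgeR adjusted p = 0.525) was 0.07 without melatonin replicate 2 and 0.57 without glycerol replicate 3. Ankrd2 (ENSMUSG00000025172, chromosome 19, 42036000 to 42045110), the family member of slow fibres, was at 143.9, 141.8 and 120.9 CPM in glycerol+melatonin and 121.2, 88.5 and 95.9 CPM in glycerol. Melatonin replicate 3 and glycerol replicate 1 were level. The log2 fold change was 0.41 ± 0.17 (edgeR adjusted p = 0.246), and 0.15 ± 0.18 after a correction for transcript length. The third of the family, Ankrd23, was on the other side, at 1248.5, 745.1 and 816.4 CPM in glycerol+melatonin and 1349.4, 2443.2 and 1571.0 CPM in glycerol (-0.93 ± 0.30, edgeR adjusted p = 0.18).

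The Xin proteins bind actin filaments and sit at the ends of fibres and at sites of damage. Xirp1 (ENSMUSG00000079243, chromosome 9, 120013755 to 120023598), which marks damaged and regenerating fibres, was at 347.2, 497.6 and 456.8 CPM in glycerol+melatonin and 233.9, 246.6 and 268.4 CPM in glycerol. The groups were apart, and the glycerol mice were the more alike. The means were 433.9 ± 77.8 CPM in glycerol+melatonin and 249.6 ± 17.5 CPM in glycerol (SD, n = 3 each), which gave 0.80 ± 0.19 on the log2 scale (edgeR adjusted p = 0.134). Xirp2 (ENSMUSG00000027022, chromosome 2, 67446002 to 67526614), a relative that MEF2 is known to drive, was at 585.6, 555.5 and 443.1 CPM in glycerol+melatonin and 823.4, 829.1 and 611.9 CPM in glycerol. Here too the groups were apart, in the other direction and with a narrow gap between melatonin replicate 1 and glycerol replicate 3 (-0.52 ± 0.20, edgeR adjusted p = 0.222). Xirp2 shares 168 exon bases with the antisense gene Gm13601, and the sources used here do not say whether counting used strand.

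Nestin (Nes, ENSMUSG00000004891, chromosome 3, 87971078 to 87980451) is an intermediate filament protein of immature fibres that adult muscle keeps at nerve and tendon junctions, and that satellite, endothelial and Schwann cells also make. It was at 96.4, 112.5 and 98.4 CPM in glycerol+melatonin and 89.5, 82.1 and 98.4 CPM in glycerol. The groups overlapped and the difference was small (0.19 ± 0.15, edgeR adjusted p = 0.505). Its adult partner desmin (Des) was at -0.08 ± 0.22 and vimentin (Vim), the filament of mesenchymal cells, at 0.43 ± 0.21 (edgeR adjusted p = 0.861 and 0.302).

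The 3 fetal sarcomere genes lay on both sides of 0. Actc1 (ENSMUSG00000068614, chromosome 2, 114047282 to 114053548), the actin of the heart and of fetal skeletal muscle, was at 2325.8, 2195.6 and 1357.9 CPM in glycerol+melatonin and 2782.1, 2905.6 and 2546.6 CPM in glycerol. All melatonin mice lay below all glycerol mice, and melatonin replicate 3 lay far below the rest (-0.49 ± 0.25, edgeR adjusted p = 0.315, and -0.27 without that mouse). Myl4 (ENSMUSG00000061086, chromosome 11, 104550663 to 104595753), the embryonic and atrial essential light chain of myosin, was at 80.1, 93.5 and 93.0 CPM in glycerol+melatonin and 60.5, 53.0 and 85.6 CPM in glycerol. Glycerol replicate 3 lay inside the melatonin range (0.42 ± 0.20, edgeR adjusted p = 0.288, and 0.65 without that mouse). Tnnt2 (ENSMUSG00000026414, chromosome 1, 135836354 to 135852260), the cardiac and embryonic troponin T, was at 23.7, 26.8 and 35.3 CPM in glycerol+melatonin and 20.7, 15.9 and 23.5 CPM in glycerol. The groups touched without overlapping (0.51 ± 0.21, edgeR adjusted p = 0.237).

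Tnfrsf12a (ENSMUSG00000023905, chromosome 17, 23675445 to 23677468) encodes Fn14, the receptor of the cytokine TWEAK, which injury and denervation induce in muscle and which fibroblasts and endothelium can also make. It was at 75.4, 88.5 and 82.5 CPM in glycerol+melatonin and 16.5, 32.8 and 36.5 CPM in glycerol. The lowest melatonin mouse was above the highest glycerol mouse, and glycerol replicate 1 was the lowest of all. The means were 82.1 ± 6.56 CPM in glycerol+melatonin and 28.6 ± 10.6 CPM in glycerol (SD, n = 3 each), which gave 1.52 ± 0.28 on the log2 scale (edgeR adjusted p = 0.111), the smallest p of the 10 genes and rank 68 among all genes. Without glycerol replicate 1 it was 1.25. Its ligand gene Tnfsf12 was at 20.6, 21.6 and 31.2 CPM in glycerol+melatonin and 29.0, 21.4 and 20.1 CPM in glycerol (0.06 ± 0.22, edgeR adjusted p = 0.907).

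Levels of different genes were compared per length, as CPM per kb of the longest annotated transcript. Which transcript was made was not measured, and a shorter one would raise the level per length. Tnnt2 and Myl4, with 15 and 8 annotated transcripts, were taken at 3330 and 3273 bases. Their places in the order depend on that choice. Actc1 was far above the rest, at 1330.5 ± 356.6 CPM per kb in glycerol+melatonin and 1863.4 ± 123.8 CPM per kb in glycerol (SD, n = 3 each). In glycerol+melatonin the order went on with Ankrd2 (119.1), Ankrd1 (85.3), Tnfrsf12a (83.5) and Xirp1 (74.3 CPM per kb), and each of these overlapped its neighbour over the 3 mice. Xirp2 (44.1), Csrp3 (35.6) and Myl4 (27.2 CPM per kb) overlapped in the same way, and Nes (16.7) and Tnnt2 (8.58 CPM per kb) stood apart below them. In glycerol, Ankrd2 (89.5), Ankrd1 (68.8) and Xirp2 (63.0 CPM per kb) overlapped each in turn, and Xirp1 (42.8 CPM per kb) stood apart below them. Tnfrsf12a (29.1) overlapped Myl4 (20.3), Nes (14.7) overlapped Csrp3 (10.6), and Tnnt2 (6.02 CPM per kb) was the lowest. Xirp1 stood above Xirp2 in glycerol+melatonin and below it in glycerol, without overlap in either. Csrp3 stood above Nes in glycerol+melatonin without overlap, and overlapped it in glycerol.

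As fetal and adult forms of a protein replace each other in the fibre, the share of the fetal form was taken within each library, per length. Tnnt2 and Myl4 were taken at 3330 and 3273 bases, and Tnnt3 and Myl1 at 1.08 kb. Shorter Tnnt2 and Myl4 transcripts would give larger shares. Actc1 made up 5.74%, 5.91% and 5.26% of sarcomeric actin transcripts (Actc1 and Acta1) in glycerol+melatonin and 6.78%, 6.47% and 6.62% in glycerol. The shares did not overlap and were lower in every melatonin mouse (two-sided exact permutation p = 0.1, the smallest that 3 against 3 mice allow). Tnnt2 made up 0.0431%, 0.0735% and 0.0912% of troponin T transcripts in glycerol+melatonin and 0.0389%, 0.029% and 0.0562% in glycerol, with overlap (exact permutation p = 0.2). Myl4 made up 0.234%, 0.315% and 0.301% of essential light chain transcripts (Myl1, Myl3, Myl4 and Myl6b) in glycerol+melatonin and 0.21%, 0.162% and 0.276% in glycerol, again with overlap (exact permutation p = 0.2). Of the adult forms, Acta1 was at -0.25 ± 0.30, fast troponin T (Tnnt3) at -0.21 ± 0.28, slow troponin T (Tnnt1) at 0.67 ± 0.36, the fast light chain Myl1 at 0.03 ± 0.23 and the slow light chain Myl3 at 0.86 ± 0.27 (edgeR adjusted p = 0.179 to 0.959).

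Ratios of read counts to a related gene in the same library do not depend on the scaling between libraries. Of 10 such ratios, chosen after the values were seen, 5 did not overlap between the groups. Each of these 5 holds a gene whose CPM already did not overlap, and the share among ratios of other genes was not taken. Moreover, 3 against 3 mice allow no exact permutation p below 0.1, which became 0.2 after adjustment over the 10. The Xirp1 to Xirp2 ratio was 0.593, 0.896 and 1.03 in glycerol+melatonin and 0.284, 0.297 and 0.439 in glycerol, a log2 difference of 1.3 ± 0.31 (SE). The Tnfrsf12a to Tnfsf12 ratio was 3.67, 4.09 and 2.64 in glycerol+melatonin and 0.571, 1.53 and 1.81 in glycerol, with no overlap. The Csrp3 to Csrp2 ratio was 2.64, 4.62 and 4.18 in glycerol+melatonin and 1.99, 1.69 and 1.8 in glycerol, again with every melatonin mouse higher. The Ankrd2 to Ankrd23 ratio was 0.115, 0.19 and 0.148 in glycerol+melatonin and 0.0898, 0.0362 and 0.061 in glycerol. The Actc1 to Acta1 ratio was lower in all melatonin mice, at 0.062, 0.064 and 0.0565 in glycerol+melatonin, against 0.074, 0.0705 and 0.0722 in glycerol. It is made from the same counts as the Actc1 share of sarcomeric actin above and is not a separate observation. The remaining ratios overlapped, with Ankrd1 to Ankrd2 at a log2 difference of -0.11 ± 0.39. Read in the sense direction, none of the 10 genes shares a stretch of 50 bases of its longest transcript with a transcript of another gene; the antisense overlap of Xirp2 is not covered by that search.

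**Figure D2:**
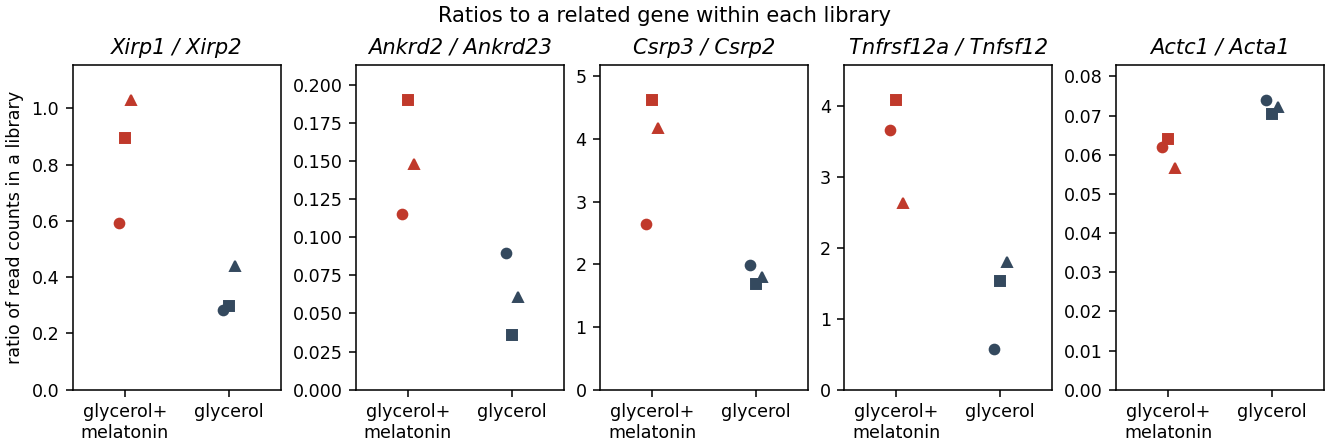
Ratio of read counts of each gene to a related gene within a library, from 0, with circles, squares and triangles for replicates 1, 2 and 3. The 5 ratios shown are those without overlap: 4 were higher in glycerol+melatonin, and Actc1 to Acta1 was lower, at 0.0565 to 0.064 in glycerol+melatonin against 0.0705 to 0.074 in glycerol.

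Other genes of the same machinery were counted from lists chosen by function, and none of them passed the edgeR test. Of 28 Z-disc and titin partners 8 were above 0 and 20 below, with a median of -0.37 (-0.18 without glycerol replicate 1 and -0.15 by library size alone). They were led by Myoz3, a fast-fibre Z-disc protein (-2.58 ± 0.39, edgeR adjusted p = 0.0788), Ankrd23 and the chaperone gene Cryab (0.59 ± 0.20, edgeR adjusted p = 0.188). A list of 18 SRF and MRTF genes, with Srf, Mrtfa and Mrtfb themselves, had 12 above 0 (median 0.21, and 0.14 without melatonin replicate 3). It was led by Fos (1.38 ± 0.22), cytoplasmic actin Actg1 (1.17 ± 0.23) and the LIM protein gene Fhl2 (0.89 ± 0.29), with edgeR adjusted p = 0.0788 to 0.183. Fos, Fosb, Egr1 and Egr3 of this list are also counted among the immediate-early genes described below. Of 17 YAP and TEAD genes tested 10 were above 0 and the median was 0.03 (-0.03 to 0.12 with 1 library left out), with the secreted matrix protein gene Ccn1 at 0.66 ± 0.22, the kinase gene Nuak2 at 0.89 ± 0.30 and Tead3 at 0.61 ± 0.20 (edgeR adjusted p = 0.185 to 0.187). Of 23 genes of newly formed fibres 16 were above 0 (median 0.28, but 0.11 without glycerol replicate 2 and 0.42 without glycerol replicate 1), among them the fusion factor Mymx (0.99 ± 0.29) and the myogenic factor Myog (0.64 ± 0.22), while Cd24a was at -1.17 ± 0.34 (edgeR adjusted p = 0.162 to 0.188). The summed level of this list lay on the other side, at 4962.8 to 5473.1 CPM in glycerol+melatonin and 5655.6 to 6590.8 CPM in glycerol. Among 15 genes around TWEAK and Fn14, 10 were above 0 and the median was 0.13 (0.03 after the length correction), with Relb at 0.51 ± 0.16 and the adaptor genes Traf2 and Traf5 at 0.39 ± 0.16 and 0.49 ± 0.22 (edgeR adjusted p = 0.181 to 0.259). Of 12 intermediate filament and linker genes tested 8 were below 0 (median -0.25, but -0.07 after the length correction, -0.03 by library size alone and -0.16 without glycerol replicate 1), among them syncoilin (Sync, -1.32 ± 0.21), utrophin (Utrn, -1.65 ± 0.46) and synemin (Synm, -0.79 ± 0.26), with edgeR adjusted p = 0.0788 to 0.186. Utrn varied widely in glycerol, at 56.9, 27.1 and 14.1 CPM. In glycerol+melatonin it was at 9.27, 7.86 and 14.0 CPM, so replicate 3 was level in both groups. With libraries scaled to pan-fibre genes the medians of the Z-disc and the filament lists were 0.12 and 0.24, on a scale where that of all genes was 0.50. Adult sarcomere genes, a list that also holds myosin heavy chain and tropomyosin genes, had 9 of 18 above 0. Their median was -0.04, or 0.47 on that scale, 0.18 by library size alone and -0.13 to 0.07 with 1 library left out.

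Pan-fibre transcripts lay on the side opposite to most of the 10 genes. Of 22 pan-fibre genes 21 were below 0 with a median of -0.41 (0.05 when libraries were scaled to them), 0 passed, and their summed level was 81560.4 to 125216.8 CPM in glycerol+melatonin and 115522.0 to 139120.9 CPM in glycerol. When libraries were scaled to these genes, Xirp2 and Actc1 were at -0.04 ± 0.18 and -0.05 ± 0.17, and Csrp3, Tnfrsf12a and Xirp1 at 2.22 ± 0.42, 1.98 ± 0.35 and 1.29 ± 0.27 (edgeR adjusted p = 0.073 to 0.871). That scaling set the median of all genes at 0.50, and scaling by library size alone at 0.23. Relative to that median Csrp3 was at 1.72 and 1.73, and Xirp2 at -0.54 and -0.53. Slow fibre genes, with 7 of 14 above 0 and a median of 0.10 (0.68 without glycerol replicate 1 and -0.03 without glycerol replicate 2), put glycerol replicate 2 apart at -0.63 and glycerol replicate 1 at 0.42, on a scale of mean log2 CPM centred per gene. Csrp3 was at 21.1 CPM in both of these mice, and the part of slow fibres in its difference was not tested. The summed level of the slow fibre list, which holds Ankrd23, was 1572.7 to 2172.7 CPM in glycerol+melatonin and 2353.3 to 3343.8 CPM in glycerol. Fast fibre genes had 8 of 15 above 0 and a median of 0.03, which was -0.19 after the length correction and -0.16 without melatonin replicate 1.

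**Figure D3:**
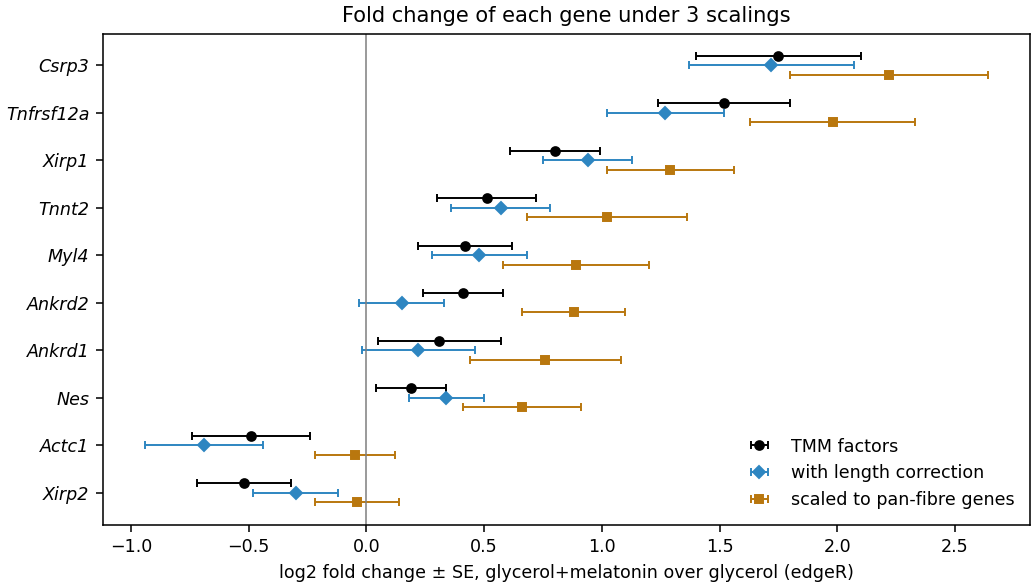
Log2 fold change with its SE, glycerol+melatonin over glycerol, for each of the 10 genes with TMM factors, with a correction for transcript length and with libraries scaled to pan-fibre genes. Csrp3, Tnfrsf12a and Xirp1 stayed above 0 in all 3, at 1.75, 1.52 and 0.80 with TMM factors, while Xirp2 and Actc1 lay near 0 only when scaled to pan-fibre genes, which sets the median of all genes at 0.50.

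Log2 fold changes varied with transcript length. Over all genes tested, cut into 4 classes of length, the median log2 fold change was 0.25 in the shortest class, 0.04 and -0.05 in the next, and -0.13 in the longest. Tnfrsf12a, Ankrd2 and Actc1 belong to the shortest class and Xirp1, Xirp2 and Nes to the longest. After the correction for length Tnfrsf12a was at 1.27 ± 0.25, Csrp3 at 1.72 ± 0.35, Xirp1 at 0.94 ± 0.19, Xirp2 at -0.30 ± 0.18 and Actc1 at -0.69 ± 0.25. Immediate-early genes, which cells switch on within a short time of a stimulus, lay mostly above 0, at 18 of 20, a median of 0.62 and a summed level of 1332.6 to 1510.4 CPM in glycerol+melatonin and 801.6 to 1021.8 CPM in glycerol. None passed, and Klf2 led (1.35 ± 0.19, edgeR adjusted p = 0.0653). The part of the immediate-early genes in the differences of the 10 genes was not tested.

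Markers of cells other than the fibre were counted because Nes, Tnfrsf12a and Xirp1 are not made by fibres alone. Sums leave out genes that a fibre list also holds, a choice made after seeing the data, because desmin (Des) and the adhesion gene Cdh15 took up 84.5% to 89.0% of the satellite list and desmin 68.5% to 76.6% of the smooth muscle list. Satellite cell markers had 7 of 16 above 0 (median -0.03), and the 14 left summed to 579.9 to 663.1 CPM in glycerol+melatonin and 557.3 to 607.1 CPM in glycerol, with overlap. Endothelial markers had 8 of 14 above 0 (median 0.05) and summed to 1462.6 to 2290.6 CPM in glycerol+melatonin and 1492.2 to 1649.0 CPM in glycerol. On the centred scale melatonin replicate 3 was the highest of the endothelial levels, at 0.47, and without that mouse the median was -0.14. Schwann cell markers had 5 of 12 above 0 (median -0.18), and the 11 left without Ncam1 summed to 124.9 to 165.8 CPM in glycerol+melatonin and 171.7 to 179.1 CPM in glycerol, lower in every melatonin mouse. Smooth muscle and pericyte markers had 5 of 14 above 0 (median -0.08), and the 13 left summed to 1353.4 to 1767.0 CPM in glycerol+melatonin and 1523.7 to 1549.5 CPM in glycerol, with overlap. Macrophage markers had 5 of 15 above 0 (median -0.16) and summed to 632.6 to 876.6 CPM in glycerol+melatonin and 645.0 to 904.5 CPM in glycerol. Stromal cells of the fibro-adipogenic kind had 3 of 15 markers above 0 (median -0.58), with sums of 5632.2 to 6684.2 CPM in glycerol+melatonin and 7542.3 to 8675.5 CPM in glycerol, and Fbn1, a microfibril protein gene, was at -0.79 ± 0.14 (edgeR adjusted p = 0.111). Scaled to pan-fibre genes, the medians of the satellite, Schwann, smooth muscle and macrophage lists were 0.45, 0.29, 0.45 and 0.32, all below the 0.50 of all genes, while that of the endothelial list was 0.60 and that of the stromal list -0.14. Scaled by library size alone, where that of all genes was 0.23, the first 4 were at 0.19, 0.03, 0.14 and 0.06, the endothelial list at 0.28 and the stromal list at -0.37. No list had a member that passed. The list of stromal markers lay on the side opposite to Tnfrsf12a, and its part in that difference was not tested.

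**Figure D4:**
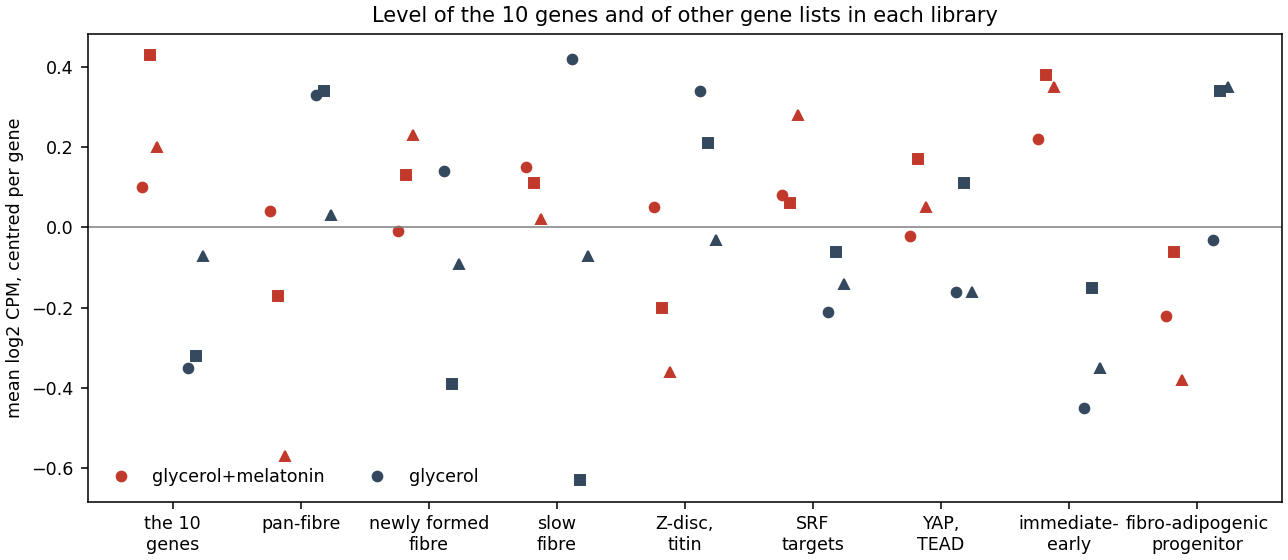
Mean log2 CPM of a list in each library, centred per gene, with circles, squares and triangles for replicates 1, 2 and 3. The 10 genes were at 0.10, 0.43 and 0.20 in glycerol+melatonin and at -0.35, -0.32 and -0.07 in glycerol, while pan-fibre genes were at 0.04, -0.17 and -0.57 in glycerol+melatonin and at 0.33, 0.34 and 0.03 in glycerol.

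Across the 6 libraries the 10 genes lay on 2 sides. As a description, with group differences included and no test, the log2 CPM of Csrp3 and Xirp1 had a Pearson r of 0.986, Xirp1 and Tnfrsf12a of 0.912, and Xirp2 and Actc1 of 0.905, while Xirp2 and Tnnt2 were at -0.94. Ankrd1 and Ankrd2 were at 0.192. Likeness was ranked among 12685 other genes with a mean of 1 CPM or more, without predicted, clone-named or unnamed genes. Those most like Csrp3 were the RNA helicase gene Ddx17 (r = 0.998), Unc45a (0.996), Gt(ROSA)26Sor (0.996), Tmem132a (0.993) and Id3 (0.993), and 148 genes were over 0.95. Those most like the mean standardized profile of the 10 were Sfxn5 (r = 0.999), Mks1 (0.996), Ccdc114 (0.995), Znhit2 (0.995) and Trmu (0.994), with 110 genes over 0.95. The 6 libraries share the group difference and the scaling. The log2 fold changes of Ddx17 and Id3 were 0.50 ± 0.17 and 0.81 ± 0.22 (edgeR adjusted p = 0.188 and 0.156).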

How the data were processed

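The deposited table holds the authors' raw counts for each Ensembl gene, with 1 column per library, matched to samples by treatment code and replicate number. Per the submitters' processing notes, the tools included HISAT2 2.0 and StringTie 1.3.3b, with no role given, and the build was mm10. The counting tool, annotation and use of strand are not given in the sources used. The smallest total of a gene was 28, so the table lists no gene below that. Symbols, positions and lengths came from GENCODE M21 on GRCm38, the assembly of mm10.

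Differences were tested with edgeR (4.0.16, under R 4.3.3), by quasi-likelihood, after TMM scaling and filterByExpr, with all 6 libraries and no covariate, fitted on 16259 genes and adjusted by Benjamini-Hochberg over all of them. The SE is the log2 fold change divided by the square root of F. Alternatives were other scalings and filters, DESeq2 1.42.0, limma-voom (limma 3.58.1), a spline correction for transcript length with 4 degrees of freedom, a replicate block and leaving out each library. The pipeline was tested on simulated counts. Log2 CPM used a prior count of 2. The members and lists were chosen with earlier results of these data known. The rule for named genes took the 10 members, the 3 smallest p of each list (not all are printed), direct relatives of members, and the genes most like Csrp3 and the mean profile. The series calls the replicates of a group biological. Their counts differed by more than counting noise, with 65.9 to 181 as the chi-square divided by its degrees of freedom. For Csrp3 and Tnnt2, which have 2 entries each in the RefSeq promoter table, the one nearer the GENCODE gene start was used.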

Additional observations from a re-analysis of the deposited data

How the results depend on the processing

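None of the 10 genes changed direction in any of 16 alternatives, and in 157 of 160 combinations of gene and alternative the edgeR call stayed the same; the other 3 were Csrp3, Xirp1 and Tnfrsf12a under DESeq2 (log2 fold changes 1.73, 0.78 and 1.51, DESeq2 adjusted p = 8.03e-05, 0.00716 and 4.41e-05). The number passing among the 10 was therefore 0, or 3 with DESeq2, and 0 without any single library. Alternatives other than DESeq2 passed only 0 to 27 genes in all at an adjusted p under 0.05, so an unchanged call says little. The edgeR adjusted p of Csrp3 ran from 0.0547 to 0.408 with 1 library left out. Over all genes 12 passed, against 752 with DESeq2, 7 with the length correction, 59 at an adjusted p under 0.1 and 6 to 27 when 1 library was left out (6 without glycerol replicate 1, 27 without glycerol replicate 3, 25 and 24 without glycerol+melatonin replicates 1 and 3). The median of the 10 genes was 0.62 with library size alone and 0.88 when scaled to pan-fibre genes, where the median of all genes also moved to 0.23 and 0.50, and 0.30 to 0.61 with 1 library left out (0.61 without glycerol replicate 3). Of the 10, the 6 with an unadjusted p under 0.05 became 3 without glycerol replicate 2 or glycerol+melatonin replicate 2 and 4 without glycerol replicate 1 or glycerol+melatonin replicate 3. Over all genes, the 3170 under that p became 1697 without glycerol replicate 2 and 2335 without glycerol+melatonin replicate 2. They became 1940 without glycerol replicate 1 and 2457 without glycerol+melatonin replicate 3. With the replicate number as a block, 0 genes passed, and the 10 had a median of 0.43. Same-numbered libraries did not deviate together (correlations -0.0101, -0.0107 and -0.0492), and the other pairs ran from -0.13 to 0.131. With 3 mice per group this does not settle whether the numbers pair the mice. With exon union length in place of the longest transcript, chosen after seeing the data, the Actc1 share of sarcomeric actin was 5.46% in glycerol+melatonin and 6.42% in glycerol, that of Tnnt2 0.0437% and 0.0261% and that of Myl4 0.383% and 0.292%. The cause of these shifts was not tested.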
